A study of Mus musculus with 27 samples.

Results

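The integrins and laminins of Prx1-tdTomato cells were described across 9 sorted groups. Members were the genes whose symbol names an integrin α subunit, an integrin β subunit or a laminin chain, and 36 of them, of 30153 genes in the table of normalized counts, are described. These are 18 α subunits, 8 β subunits and 10 laminin chains, chosen by symbol and not by any measured value. All 36 described members reached at least 10 normalized counts in at least 3 libraries and were tested.

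Cells came from hindlimb bone marrow, periosteum and muscle of Prx1-CreER/Ai14/Rag1 mice of both sexes aged 8 to 12 weeks, 3 days after the last of 2 tamoxifen injections. In these mice the Prx1 promoter drives an inducible Cre that turns on tdTomato, so the sort took labelled cells and their progeny, and every group carried the same Rag1 allele and treatment. All cells were Prx1+ and CD45- and were split by CD105 and CD200 into 3 subpopulations. P1 lacked CD105 and carried CD200, P2 lacked both, and P3 carried CD105 with or without CD200. Each of the 9 groups had 3 libraries, 27 in all. No label ties the replicate numbers across groups or a library to an animal, so p-values measure the spread between these libraries. That spread was estimated for each gene over all 9 groups together, so it is not that of the compared groups alone.

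Integrins are receptors made of an α and a β subunit that hold a cell to its matrix or to another cell, and the α subunit largely decides whether collagen, laminin, fibronectin or a partner on a leukocyte is bound. Laminins are trimers of an α, a β and a γ chain and form the sheet on which basement membranes are built, around muscle fibres, vessels, nerves and fat cells. In bone and muscle stroma these receptors and ligands are known for anchoring cells to fibrillar collagen, to vessel walls and to the muscle fibre surface.

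Normalized counts summed to between 8631881 and 26230908 per library, with 12396 to 21675 genes above 0. The sort markers were high where their gates put them. Eng, the gene of CD105, was at 6067, 5621 and 4523 in P3 of muscle against 178, 382 and 367 in P1, and Cd200 was at 6346, 7515 and 6315 in P1 of bone marrow against 72.6, 21.1 and 56.3 in P2. RNA of other cell types moved with the gates as well. Summed erythroid markers were at 8079609 to 12868129.5 in P2 of bone marrow and 3477279 to 9578004 in P2 of periosteum, against at most 498169.7 in P1 of bone marrow and 47703 in P1 of periosteum. Myofibre markers summed to 2274265 to 2975249 in P2 of muscle and at most 49615 in P1. Endothelial markers summed to 42833 to 70417 in P3 of muscle and 28930.3 to 54044 in P3 of periosteum, against at most 16429 and 1974 in P1 of these tissues. Leukocyte markers summed to 35112 to 199646 in P2 of bone marrow, a range that overlapped 19671 to 67849 in P1 and 14113 to 48242 in P3. The part of these cells in the results was not tested except where a value is given, and in bulk samples fewer cells of a type and less RNA per cell cannot be told apart.

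Differences are log2 fold changes of log2(normalized count + 1), each with its standard error (SE), fitted for all genes together with limma. A gene was called when its Benjamini-Hochberg adjusted p over 18442 genes was below 0.05 and its log2 fold change exceeded 1.5 in size. On this scale 32 of the members were called in at least 1 of 15 comparisons and 4 in none (Itgad, Itgav, Itgb3 and Itgb5). The share of all genes called in at least 1 comparison was not counted, so these numbers do not set the members apart from other genes. Itga10, a collagen receptor subunit, and Itga7, a laminin receptor subunit, were called most often, in 7 of the 15 each.

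**Figure D1:**
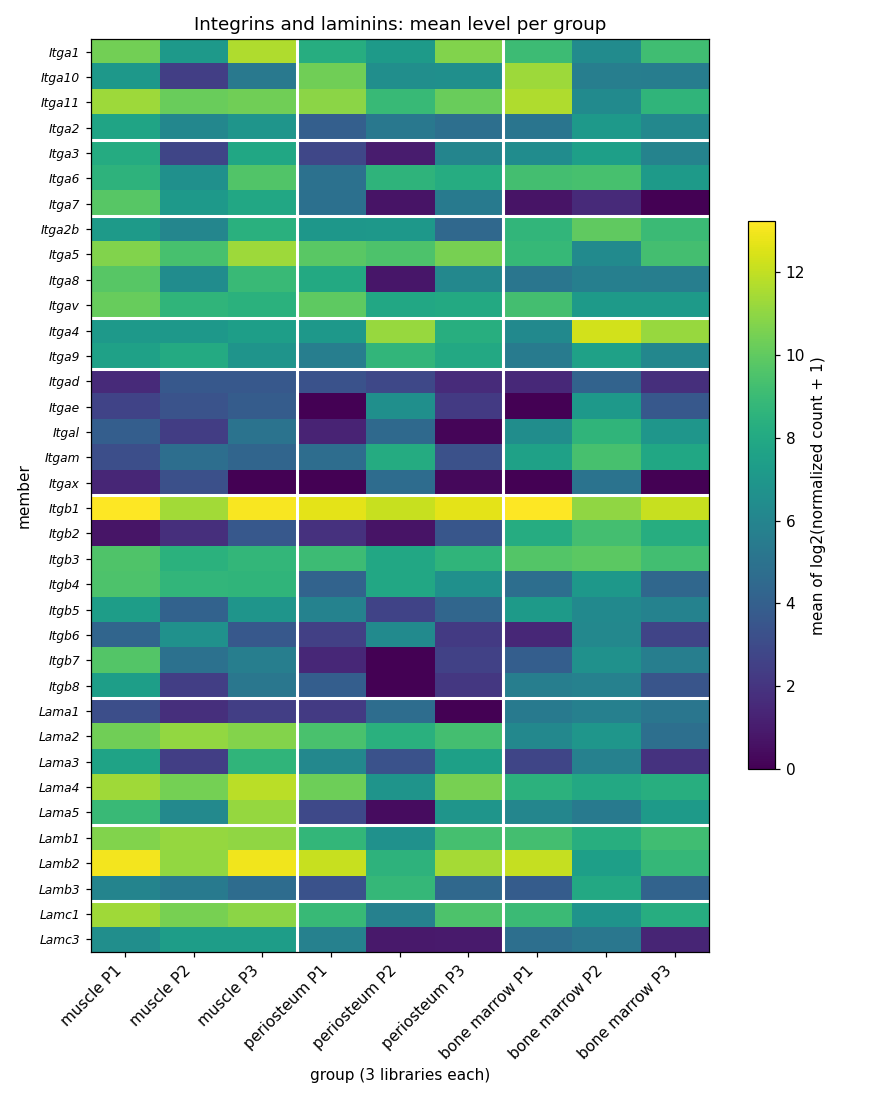
Mean of log2(normalized count + 1) of the 36 members (rows, grouped by role) in the 9 groups (columns, 3 libraries each), with a color scale in log2 units from 0. Itgb1 is bright in every group, Itga10 in P1 of bone marrow and periosteum, and Itga4 in P2 of these tissues and P3 of bone marrow. Lama2, Lama4 and Lamc1 are bright in muscle, and Lamb2 in muscle and in P1 of bone marrow and periosteum.

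Per kb of exon, Itgb1, the β subunit shared by most matrix receptors, had the highest level of the set, with a mean of 1528 normalized counts per kb over the 9 groups. Lamb2 followed with 611, Itga11 with 274 and Itga5 with 208 per kb. The next members lay close together, with Lamc1 at 129, Lama4 at 118, Itgb3 at 117 and Lamb1 at 113 per kb. Their order changed from group to group. Among the α subunits the leading one per kb was Itga11 in P1 of all 3 tissues, at 633 in bone marrow, 491 in muscle and 378 in periosteum. In P3 it was Itga5 in muscle (499.6 per kb) and periosteum (309.6) but Itga4 in bone marrow (173). In P2 it was Itga11 in muscle (253), Itgam in periosteum (313, carried by 1 library) and Itga4 in bone marrow (359).

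The first comparison asked how the tissues differ with the 3 subpopulations averaged. Laminin chains were mostly higher in muscle, Itgal, Itgam and Itgb2, subunits of leukocyte integrins, were lower in muscle and periosteum than in bone marrow, and Itga10 and Itga4 were lower in muscle than in both bone tissues. In muscle against bone marrow 13 members were higher and 6 lower, where 10.9% and 10.8% of all genes tested were, and 7 of the 10 laminin chains were among the higher and 1 among the lower. In muscle against periosteum 13 were higher and 2 lower, against 17.2% and 3.19% of all genes, with 5 laminin chains higher and 0 lower. In periosteum against bone marrow 3 were higher and 8 lower, against 4.01% and 16.8% of all genes. The median log2 fold change of the laminins was 2.82 in muscle against bone marrow and 1.84 against periosteum, beside -0.10 and 0.56 over all genes. That of the integrins was 0.25 and 0.80.

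**Figure D2:**
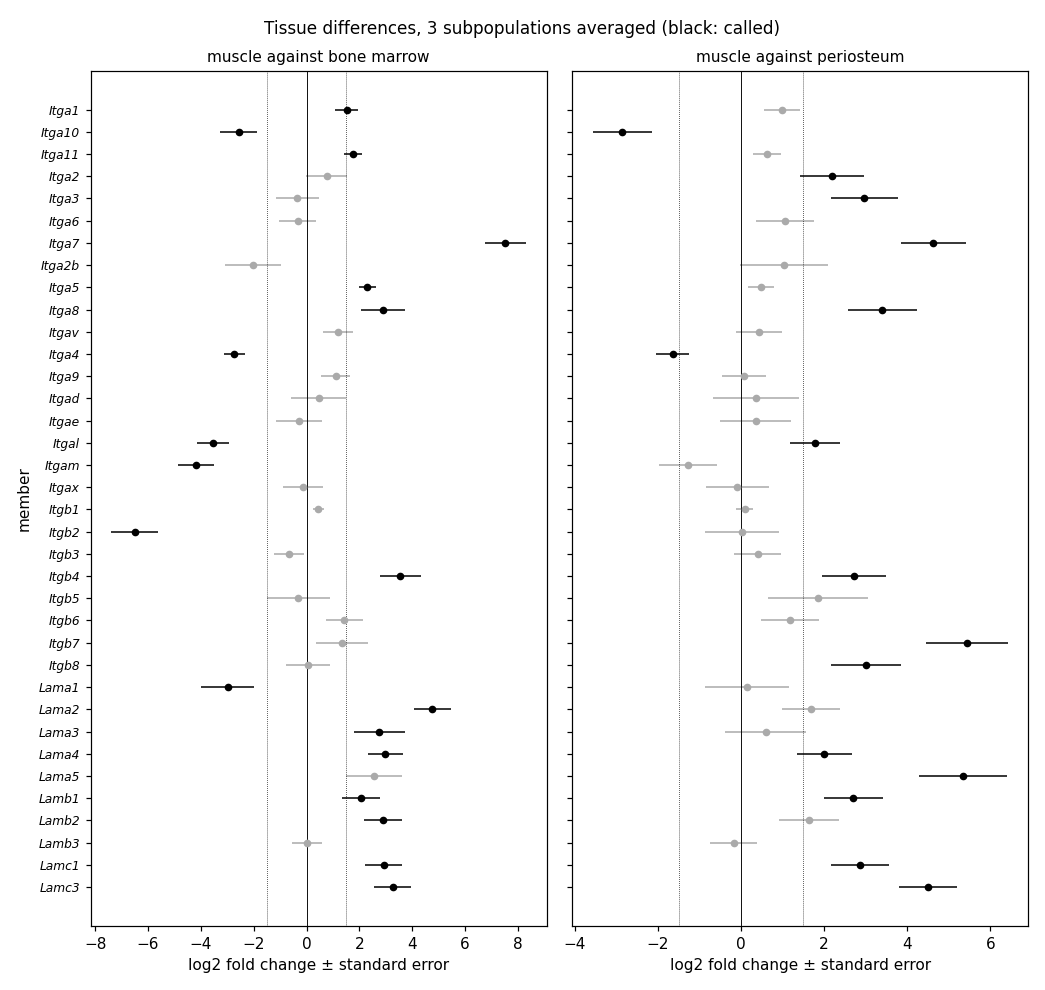
Log2 fold change with its standard error (bars) of each member in muscle against bone marrow (left) and against periosteum (right), the 3 subpopulations averaged, black where called and grey where not, with dotted lines at 1.5. Itga7 and Lama2 stand farthest to the right against bone marrow, at 7.52 and 4.76, and Itgb2 farthest to the left at -6.50.

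Under quantile normalization the split was 10 higher and 3 lower in muscle against periosteum and 4 higher and 6 lower in periosteum against bone marrow. It moved the median over all genes tested from 0.56 to -0.01 in muscle against periosteum and from -0.69 to -0.10 in periosteum against bone marrow. Making library totals equal moved it from 0.48 to -0.53 in P2 against P3 of bone marrow, from 0.24 to 0.77 in P1 against P2 of muscle and from 0.06 to 0.64 in P1 of muscle against P1 of bone marrow. No called member change turned its direction under any of 37 alternatives. Some tissue calls rested on few libraries. The call of Itga4 in muscle against periosteum was lost without periosteum P1 replicate 2 or periosteum P3 replicate 3 (-1.43 to -1.40), that of Itga11 in muscle against bone marrow without bone marrow P2 replicate 2 (1.49), that of Lama4 in muscle against periosteum without any 1 of 6 libraries (1.31 to 1.95), that of Lamb1 in muscle against bone marrow without any 1 of 10 libraries (1.69 to 2.05) and that of Itgal in muscle against periosteum without any 1 of 10 libraries (1.47 to 1.79).

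Of the collagen receptor subunits, Itga10, Itga11 and Itga1 were called between subpopulations and Itga2 was not. Itga10 (ENSMUSG00000090210, GENCODE M21 position on GRCm38 chr3:96645584-96664519, plus strand) and Itga11 (ENSMUSG00000032243, chr9:62677826-62783982, plus strand) encode α10, the collagen receptor known from chondrocytes, and α11, the fibrillar collagen receptor of stromal cells. Because both were higher in P1 than in P2 of bone marrow and periosteum, their promoters are shown, as the 250 bases before the start that RefSeq gives on GRCm38.p6, with a searched motif in capitals where it was found.
Itga10 (chr3:96645334-96645583, plus strand): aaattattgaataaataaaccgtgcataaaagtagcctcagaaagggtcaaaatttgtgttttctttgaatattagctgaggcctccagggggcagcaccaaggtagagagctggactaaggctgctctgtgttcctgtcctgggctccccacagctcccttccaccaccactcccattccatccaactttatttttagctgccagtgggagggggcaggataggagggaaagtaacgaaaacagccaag
Itga11 (chr9:62677605-62677854, plus strand): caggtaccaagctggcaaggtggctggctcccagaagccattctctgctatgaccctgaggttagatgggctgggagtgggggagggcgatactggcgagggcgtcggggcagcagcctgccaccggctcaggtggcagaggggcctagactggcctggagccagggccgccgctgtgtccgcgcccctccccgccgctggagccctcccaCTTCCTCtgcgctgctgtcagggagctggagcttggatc
The searched letters were GAGGAAG, an ETS site with a PU.1 flank, AGATAA for GATA factors, TGTGGT for RUNX, GGGCGG for SP1 and the E-box CAGCTG, on both strands. They occur in 10.6%, 9.99%, 14.0%, 32.7% and 13.0% of the 32851 RefSeq promoter windows of this length. Itga10 held none of these letters. Itga11 held the reverse of the ETS letters, CTTCCTC, 39 bases before the start. A match is a description of these letters and not a site in use. Of the 36 members 23 had an entry.

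In P1 of bone marrow Itga10 was at 2635, 2567 and 2352 normalized counts, and in P1 of periosteum at 1010.0, 1595 and 1309.9. P1 of muscle had 112, 159 and 129, below every library of both. In bone marrow P2 had 57.5, 40.1 and 52.2 and P3 70.5, 22.9 and 68.2, so that no library of these overlapped P1. The log2 fold change of P1 over P2 in bone marrow was 5.64 (SE 1.22, adjusted p = 0.00112) and of P1 over P3 5.68 (SE 1.22, adjusted p = 0.00379). Periosteum had the same direction, with P2 at 3.34, 334 and 569 and a change of 3.77 (SE 1.22, adjusted p = 0.0316). There P2 was uneven, with 1 library near 0 and the others far above it. In muscle P2 was at 0, 14.2 and 9.85, and P1 over P2 was 4.60 (SE 1.22, adjusted p = 0.017). Muscle against bone marrow gave -2.56 (SE 0.71, adjusted p = 0.00775) and against periosteum -2.86 (SE 0.71, adjusted p = 0.00471) over the averaged subpopulations. The call in P1 over P2 of muscle was lost without muscle P1 replicate 2 or 3 or muscle P2 replicate 1 (3.37 to 4.62), and that in periosteum without periosteum P1 replicate 1, 2 or 3 or periosteum P2 replicate 1 (1.55 to 3.94). Summed chondrocyte markers were at 81680.4 to 128053 in P1 of bone marrow and 130490.3 to 297609 in P2 of periosteum, and osteoblast markers at 945452 to 1348195 and 3030.1 to 10839 there. In P1 of bone marrow nearly all of the chondrocyte sum was 1 gene, Col11a2, with a mean of 109220. In P2 of periosteum the top gene was Col9a3, with a mean of 94087. The part of either list in Itga10 was not tested. Exons of Itga10 share 1739 bases with Gm42957 on the same strand, so reads there cannot be told apart.

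Itga11 was high in P1 of every tissue. Bone marrow P1 had 3164, 4079 and 2499, muscle P1 2833, 2559 and 2174 and periosteum P1 1486, 2418 and 1921 normalized counts, where bone marrow overlaps muscle and muscle overlaps periosteum. The tissues lay further apart in P2, at 144, 25.0 and 129.7 in bone marrow, 543, 494 and 392 in periosteum and 1899, 651 and 1342 in muscle. P1 over P2 was 5.34 (SE 0.59, adjusted p = 3.03e-07) in bone marrow and 2.01 (SE 0.59, adjusted p = 0.0181) in periosteum. In muscle it was 1.08 (SE 0.59, adjusted p = 0.322) and not called. The change in muscle minus that in bone marrow was -4.25 (SE 0.83, adjusted p = 0.000777), and the change in periosteum minus that in bone marrow -3.32 (SE 0.83, adjusted p = 0.0139). The call in periosteum was lost without periosteum P1 replicate 2 (1.84). Osteoblast markers summed to 945452 to 1348195 in P1 of bone marrow against 1589 to 4121 in P2 (9 of 9 genes higher and 0 lower), the direction of Itga11. In P2 of muscle they summed to only 369 to 707, where Itga11 was above P2 of bone marrow in every library. Fibroblast markers summed to 108897 to 137036 in P1 and 1041 to 2414 in P2 of bone marrow and 275066 to 498676 in P2 of muscle. The part of either list was not tested.

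Itga1, the α subunit of a receptor for basement membrane collagen, was lowest in P2, with its highest level in P3 of muscle at 3810.5, 2481 and 3356. Periosteum P3 had 2176, 3035 and 717 and bone marrow P3 1471, 351 and 357. P2 was low in all tissues, at 89.2, 288 and 99.0, 65.2, 140.5 and 343 and 42.4, 116 and 110.2 in muscle, periosteum and bone marrow. P2 against P3 gave -4.52 (SE 0.77, adjusted p = 0.000209) in muscle, -3.51 (SE 0.77, adjusted p = 0.00285) in periosteum and -2.79 (SE 0.77, adjusted p = 0.0124) in bone marrow, and no library of P2 overlapped P3 in any of the tissues. P1 over P2 was also called in muscle, at 3.27 (SE 0.77, adjusted p = 0.0067), and in bone marrow, at 2.67 (SE 0.77, adjusted p = 0.00939). The calls in bone marrow were lost without bone marrow P1 replicate 3 or bone marrow P2 replicate 1 (2.20 to 2.30) for P1 against P2 and without bone marrow P2 replicate 1 or bone marrow P3 replicate 1 (-2.32 to -2.10) for P2 against P3. Endothelial markers moved in the same direction in P2 against P3, with 0 of 12 genes higher and 9 lower in muscle, 0 of 12 genes higher and 10 lower in periosteum and 0 of 12 genes higher and 8 lower in bone marrow. In P1 against P2 of bone marrow their sum had the opposite direction to Itga1, at 209 to 248 in P1 and 1220 to 1972 in P2. The part of these markers was not tested. Itga2, the collagen receptor subunit of platelets and epithelia, was low throughout, with group means of at most 233 ± 118 (SD, n = 3) in P1 of muscle, and was called only in muscle against periosteum at 2.19 (SE 0.77, adjusted p = 0.0395), a call lost without any 1 of 12 libraries (1.64 to 2.26).

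**Figure D3:**
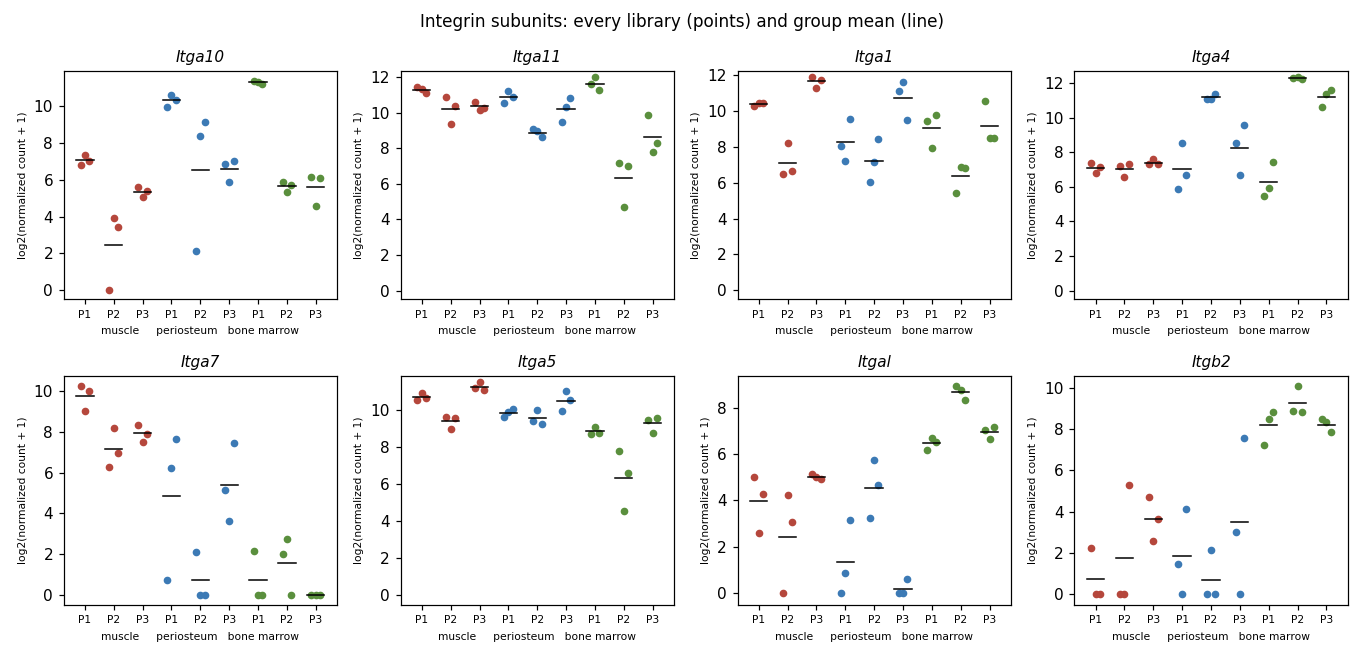
Log2(normalized count + 1) of 8 integrin subunits in every library (points, colored by tissue) with the group mean (line), P1, P2 and P3 of muscle, periosteum and bone marrow from left to right. Itga10 stands apart in P1 of bone marrow and periosteum. Itga4 is high in P2 of the same tissues and in P3 of bone marrow, and Itga7 is near 0 in bone marrow.

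Among the laminin receptors, Itga7 (ENSMUSG00000025348, chr10:128933818-128958282, plus strand), whose α7 pairs with β1 on muscle fibres and myoblasts, marked muscle. P1 of muscle had 1214, 527 and 1051 normalized counts, P2 77.7, 289 and 124 and P3 328, 182 and 242. Bone marrow held almost none, with 3.39, 0 and 0 in P1 and 3.01, 5.61 and 0 in P2, and P3 was listed at 0 in all 3 libraries. Every muscle library was above every bone marrow library, and muscle against bone marrow was 7.52 (SE 0.78, adjusted p = 6.65e-08). Periosteum was mixed, with 0.659, 73.3 and 202 in P1 and 34.2, 11.2 and 175 in P3, while P2 had 3.34, 0 and 0. Muscle against periosteum was 4.63 (SE 0.78, adjusted p = 0.000137) and periosteum against bone marrow 2.90 (SE 0.78, adjusted p = 0.00821). Within periosteum P1 over P2 was 4.17 (SE 1.35, adjusted p = 0.0313), where the libraries overlapped, and P2 against P3 -4.70 (SE 1.35, adjusted p = 0.0186). Satellite cell markers summed to 17466 to 19252 in P1 of muscle and 237 to 650.4 in P3 of bone marrow, and mural cell markers to 42765 to 90804 and 659.9 to 3642. In P2 of muscle, where Itga7 was lower than in P1, the 2 lists summed to 57526 to 136249 and 55990 to 137017. Des was the top gene of both there. Satellite cell markers summed to 2325 to 3956 in P1 of bone marrow. The part of these markers was not tested. In muscle every P1 library of Itga7 was above every P2 library, at 2.63 (SE 1.35, adjusted p = 0.283) and not called, whereas myofibre markers were highest in P2. The periosteum calls were lost without periosteum P1 replicate 2 or 3 or periosteum P2 replicate 2 or 3 (2.77 to 3.81) for P1 over P2 and without periosteum P2 replicate 2 or 3 or periosteum P3 replicate 3 (-4.34 to -3.67) for P2 against P3.

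Itga3, a receptor subunit for epithelial and vascular laminins, was called in 6 comparisons with wide spread. Muscle P1 had 422, 145 and 342 and P3 229, 196 and 296, above P2 at 0.96, 7.10 and 17.9 with no overlap. P1 over P2 was 5.37 (SE 1.40, adjusted p = 0.0152) and P2 against P3 -5.15 (SE 1.40, adjusted p = 0.0155), calls lost without muscle P1 replicate 1 or 3 or muscle P2 replicate 1 (4.48 to 5.21) and without muscle P2 replicate 1 or muscle P3 replicate 1 or 3 (-5.18 to -4.26). In periosteum 5 of 9 libraries were below 10, with 0.856, 0.748 and 105 in P1, 7.53, 0 and 0 in P2 and 182, 6.91 and 181 in P3. The 9 bone marrow libraries lay between 26.5 and 258, and periosteum against bone marrow was -3.33 (SE 0.81, adjusted p = 0.00399). Itga6, which pairs with β1 or β4, ranged from 0.863 to 1206 and was called only in periosteum, P1 against P2 at -3.69 (SE 1.21, adjusted p = 0.0334), and in P1 of periosteum against P1 of bone marrow at -4.33 (SE 1.21, adjusted p = 0.0357). P1 of periosteum had 0.863, 150.5 and 94.9, with 1 library near 1, and P1 of bone marrow 774, 508 and 561. These calls were lost without periosteum P1 replicate 1 or periosteum P2 replicate 1 or 3 (-3.69 to -1.68) and without bone marrow P1 replicate 1, 2 or 3 or periosteum P1 replicate 1 (-4.46 to -2.33).

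Fibronectin and related receptors were led by Itga5, the α subunit of the main fibronectin receptor. Its level was highest in P3 of muscle at 2370.0, 2865 and 2159 and lowest in P2 of bone marrow at 217, 22.5 and 96.8. P1 of muscle had 1465, 1918 and 1622 and P1 of bone marrow 416, 535 and 432. Muscle against bone marrow was 2.30 (SE 0.32, adjusted p = 4.7e-06) and periosteum against bone marrow 1.82 (SE 0.32, adjusted p = 0.000171), whereas muscle against periosteum was 0.48 (SE 0.32, adjusted p = 0.27) and not called. Within bone marrow both P1 and P3 (716, 440.2 and 769) exceeded P2 in every library, with 2.53 (SE 0.55, adjusted p = 0.00111) for P1 over P2 and -2.98 (SE 0.55, adjusted p = 0.000518) for P2 against P3. Itga8, which binds nephronectin and fibronectin in mesenchyme, had 528, 1156 and 1068 in P1 of muscle and 1572, 208 and 383 in P3. It was almost absent from P2 of periosteum at 4.22, 0 and 0, where P1 had 381, 312 and 145, a change of 7.22 (SE 1.42, adjusted p = 0.00088). In bone marrow P1 over P2 was -0.50, and the change in periosteum exceeded it by 7.72 (SE 2.01, adjusted p = 0.0187), a difference lost without bone marrow P2 replicate 3 (6.35). Muscle against bone marrow was 2.88 (SE 0.82, adjusted p = 0.0101) and against periosteum 3.40 (SE 0.82, adjusted p = 0.00405).

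Itgav, the α subunit that pairs with several β subunits to bind vitronectin and latent TGF-β, was called in no comparison and ranged from 46.7 to 1412, with 1412, 1109 and 905 in P1 of muscle and 1181, 921 and 896 in P1 of periosteum. Itga2b, the platelet subunit that pairs with β3, was at 1779, 1022 and 576 in P2 of bone marrow and 0, 2996 and 794 in P2 of periosteum, a wide spread within 1 group. Only periosteum against bone marrow was called, at -3.06 (SE 1.06, adjusted p = 0.036), and that call was lost without any 1 of 9 libraries (-3.08 to -2.58). Megakaryocyte and platelet markers summed to 1951 to 20824 in P2 of bone marrow and 114 to 2528 in P2 of periosteum, with 0 of 11 genes higher and 10 lower in that comparison, and their part was not tested.

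The α4 subunit separated the subpopulations of bone marrow and periosteum in the opposite direction to α10 and α11. Itga4 (ENSMUSG00000027009, chr2:79255426-79333123, plus strand) encodes the receptor subunit for VCAM-1 and fibronectin on blood cells and their progenitors. Its promoter is shown for comparison with those of Itga10 and Itga11, in the same form.
Itga4 (chr2:79255176-79255425, plus strand): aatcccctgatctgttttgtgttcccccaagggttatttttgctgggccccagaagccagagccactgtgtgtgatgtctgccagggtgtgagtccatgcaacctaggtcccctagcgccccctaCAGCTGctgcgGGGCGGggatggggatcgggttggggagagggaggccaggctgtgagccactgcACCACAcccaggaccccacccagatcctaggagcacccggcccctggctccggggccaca
Capitals mark CAGCTG at 125, GGGCGG at 114 and ACCACA, the reverse of the RUNX letters, at 60 bases before the start.

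Itga4 was at 5067, 5233 and 4763 normalized counts in P2 of bone marrow, 1560.2, 2595 and 3113 in P3 and 43.4, 60.4 and 169.6 in P1. P1 lay below both without overlap, with -6.02 (SE 0.68, adjusted p = 4.77e-07) against P2 and -4.91 (SE 0.68, adjusted p = 3.38e-05) against P3. In periosteum P2 had 2184, 2117 and 2656 and P1 57.8, 368 and 102, a change of -4.14 (SE 0.68, adjusted p = 0.000128), and P2 against P3 (369, 102 and 767) was 2.90 (SE 0.68, adjusted p = 0.00508). In muscle the groups overlapped. Its 9 libraries lay between 92.1 and 194, and P1 against P2 was 0.07 (SE 0.68, adjusted p = 1). The difference of the P1 against P2 change between muscle and bone marrow was 6.09 (SE 0.96, adjusted p = 0.000104), between muscle and periosteum 4.21 (SE 0.96, adjusted p = 0.00559), and for P1 against P3 between muscle and bone marrow 4.61 (SE 0.96, adjusted p = 0.01). Erythroid markers were highest in P2 of bone marrow and periosteum. P1 against P2 gave 0 of 11 genes higher and 11 lower in bone marrow and 0 of 11 genes higher and 11 lower in periosteum. In muscle it also gave 0 of 11 genes higher and 10 lower, and the part of these markers in Itga4 was not tested. Ptprc, the gene of CD45, was at 312, 690.2 and 829 in P2 of bone marrow and 18.5, 32.0 and 184 in P2 of periosteum. Exons of Itga4 share 1124 bases with Cerkl on the opposite strand, whose highest value was 359, and the library kit does not mark strand.

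Itga9, the related receptor subunit for tenascin-C and VCAM-1, ranged from 10.8 to 607. P2 of periosteum had 437, 417 and 379 and P1 55.8, 10.8 and 179, a change of -3.06 (SE 0.94, adjusted p = 0.0239), its only call, lost without periosteum P1 replicate 2 or periosteum P2 replicate 2 (-3.04 to -2.02).

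Itgal and Itgb2, subunits of leukocyte integrins, were highest in bone marrow. Itgal, the α subunit of the receptor for ICAMs, was at 481, 428 and 316 in P2, 128, 98.6 and 141 in P3 and 71.5, 103 and 90.3 in P1 of bone marrow. In muscle it reached at most 34.4 and in periosteum at most 51.6, so no library of either overlapped bone marrow. The change in muscle against bone marrow was -3.55 (SE 0.60, adjusted p = 7.2e-05) and periosteum against bone marrow -5.33 (SE 0.60, adjusted p = 5.45e-07). Itgam, the α subunit of the complement receptor of myeloid cells, was at 654, 745 and 609 in P2 of bone marrow and 129, 371 and 138 in P1, and muscle against bone marrow was -4.19 (SE 0.69, adjusted p = 5.25e-05). Periosteum P2 had 4579.8, 71.0 and 63.6, where replicate 1 alone was high, and the call of P1 against P2 there, at -3.38 (SE 1.20, adjusted p = 0.0486), was lost without any 1 of 22 libraries (-3.75 to -1.35). Summed leukocyte markers in that group ran from 1839 to 100683. Itgb2, the common β subunit of these receptors, was at 0, 3.42 and 0 in the same libraries. Exons of Itgam share 3450 bases with Gm49368 on the same strand.

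In bone marrow Itgb2 was at 465, 1069 and 455, 148, 356 and 455 and 359, 318 and 229 in P2, P1 and P3, against at most 37.8 in muscle and 188 in periosteum. Muscle against bone marrow was -6.50 (SE 0.89, adjusted p = 4.7e-06), the lowest value of the set in that comparison, and periosteum against bone marrow -6.52 (SE 0.89, adjusted p = 9.23e-06). In P1 alone muscle against bone marrow was -7.43 (SE 1.55, adjusted p = 0.00214) and periosteum against bone marrow -6.31 (SE 1.55, adjusted p = 0.0152), the latter a call lost without bone marrow P1 replicate 2 or 3 or periosteum P1 replicate 1 or 2 (-6.16 to -5.38). Leukocyte markers were lower in the same direction, with 0 of 15 genes higher and 13 lower in muscle against bone marrow and summed levels of 19671 to 67849 in P1 of bone marrow and 575 to 969 in P1 of muscle, where 1 of the 15 markers was at 0 in every library. The sort removed CD45+ cells, and the part of leukocyte RNA was not tested.

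Itgae, which pairs with β7 to bind E-cadherin, was listed at 0 in all libraries of P1 of bone marrow and of P1 of periosteum. P2 had 129.8, 101 and 203 in bone marrow and 204, 85.7 and 47.2 in periosteum, with adjusted p of 0.000752 and 0.00293 for P1 against P2. Itgax, the subunit known from dendritic cells, was likewise listed at 0 in P1 and P3 of bone marrow, in P1 of periosteum and in P3 of muscle, and had 21.1, 25.3 and 61.3 in P2 of bone marrow. P2 of periosteum had its highest mean, at 90.5, 0 and 176, with 1 library at 0. Itgax reached 10 in only 7 of 27 libraries, most of them in these P2 groups, and was at 0 in 17. It thus passed the filter through the groups in which it is called higher, and the calls are only a description. The size of a change from 0 depends on the pseudocount of 1. P1 against P2 was -5.05 (SE 1.31, adjusted p = 0.00478) in bone marrow and -4.66 (SE 1.31, adjusted p = 0.0149) in periosteum, and P2 against P3 5.05 (SE 1.31, adjusted p = 0.00889) and 4.36 (SE 1.31, adjusted p = 0.0242). The periosteum calls were lost without periosteum P2 replicate 1 or 3 (-3.73 to -3.26) and without periosteum P2 replicate 1 or 3 or periosteum P3 replicate 1 or 3 (2.96 to 4.21). Itgad, the remaining leukocyte subunit, was called nowhere. Its highest value was 221, in P1 of periosteum, and the 3 libraries of that group had 3.44, 221 and 0.

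Of the β subunits, Itgb1 was high everywhere and lower in P2. In muscle P1 had 8710.4, 9175 and 10757, P3 5911, 9683 and 11869.5 and P2 1933, 3509 and 2773, so that P2 lay below both without overlap. P1 over P2 was 1.84 (SE 0.35, adjusted p = 0.00107) in muscle and 2.17 (SE 0.35, adjusted p = 5.1e-05) in bone marrow, where P1 had 7673, 12496 and 8818 and P2 2335, 2455 and 1612. In periosteum it was 0.58 (SE 0.35, adjusted p = 0.257) and not called. Between tissues none of the averaged changes passed the threshold, and muscle against bone marrow was 0.44 (SE 0.20, adjusted p = 0.113).

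Itgb4, the β subunit of hemidesmosomes and of Schwann cells, was higher in muscle. P1 of muscle had 665, 683 and 885, P1 of periosteum 0.502, 64.2 and 63.2 and P1 of bone marrow 5.15, 61.4 and 54.5, with no overlap between muscle and the others. In P1 muscle exceeded periosteum by 5.32 (SE 1.34, adjusted p = 0.0188) and bone marrow by 4.74 (SE 1.34, adjusted p = 0.0244), calls lost without muscle P1 replicate 1, 2 or 3 or periosteum P1 replicate 1 (3.51 to 5.40) and without bone marrow P1 replicate 1 or muscle P1 replicate 1, 2 or 3 (3.65 to 4.81). Schwann cell markers summed to 3781 to 5145, 1686 to 2762 and 381 to 614 in these groups, and their part was not tested. Itgb7, the partner of α4 and αE on lymphocytes, had its highest level in P1 of muscle at 644, 601 and 1494, where leukocyte markers summed to 575 to 969. P1 of periosteum had 0, 0.548 and 12.9 and P1 of bone marrow 26.23, 0 and 131, and muscle exceeded them by 8.23 (SE 1.71, adjusted p = 0.00487) and 5.77 (SE 1.71, adjusted p = 0.0338). The second call was lost without any 1 of 5 libraries (3.80 to 6.18). Its partners in the same libraries had Itga4 at 165, 108 and 142 and Itgae at 19.2, 0 and 11.3.

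Itgb8 and Itgb6 encode β subunits that pair with αv and release active TGF-β. Itgb8 was at 195, 299 and 80.5 in P1 of muscle and 2.88, 8.11 and 3.78 in P2, a change of 4.93 (SE 1.45, adjusted p = 0.0324) lost without any 1 of 6 libraries (4.52 to 5.46), and was listed at 0 in all of P2 of periosteum. Itgb6 had its highest mean in P2 of muscle, at 113, 25.3 and 379.7 with a wide spread, where P1 had 10.6, 18.6 and 31.5 and P1 against P2 was -2.42 (SE 1.21, adjusted p = 0.265) and not called. In P2 of bone marrow and periosteum it was at 108, 27.2 and 120.0 and 68.9, 81.7 and 90.1 against 0, 1.35 and 8.03 and 8.28, 11.01 and 0.667 in P1. P1 against P2 was -4.70 (SE 1.21, adjusted p = 0.00441) and -3.82 (SE 1.21, adjusted p = 0.0281), the second lost without periosteum P1 replicate 3 or periosteum P2 replicate 2 or 3 (-3.81 to -2.94). Itgb3, which pairs with αv and αIIb, ranged from 35.4 to 2064, and Itgb5, another partner of αv, from 0 to 663. Neither was called in any comparison.

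Of the laminin α chains, Lama2 and Lama4 were higher in muscle than in bone marrow. Lama2, the chain of the muscle fibre surface, was at 1655, 1188 and 1105 in P1 of muscle, 1538, 1657 and 1997 in P3 and 1244, 10739.9 and 739.6 in P2. Replicate 2 of P2 stood far above its partners, and P2 is the group with the most myofibre RNA. Bone marrow had 80.2, 39.7 and 106 in P1, and no muscle library overlapped bone marrow. Set against bone marrow, muscle was higher by 4.76 (SE 0.71, adjusted p = 1.32e-05), and within P1 alone 4.20 (SE 1.22, adjusted p = 0.0297), the latter lost without any 1 of 6 libraries (3.80 to 4.50). Periosteum exceeded bone marrow by 3.08 (SE 0.71, adjusted p = 0.00251). Muscle against periosteum was 1.68 (SE 0.71, adjusted p = 0.0823) and not called.

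Lama4 and Lama5 are the chains of vessel walls. Lama4 was at 3577, 5820.2 and 2484 in P3 and 2998, 3238 and 1744 in P1 of muscle and 389.6, 219 and 529 in P1 of bone marrow. Lama4 in muscle against bone marrow was 2.98 (SE 0.66, adjusted p = 0.00125) and against periosteum 2.004 (SE 0.66, adjusted p = 0.0289). In periosteum P2 was lowest at 358, 5.42 and 656, below P1 at 1941, 755 and 1365 and P3 at 1660.4, 2391 and 769 without overlap, with 3.46 (SE 1.14, adjusted p = 0.0345) for P1 over P2 and -3.66 (SE 1.14, adjusted p = 0.0288) for P2 against P3, calls lost without periosteum P1 replicate 1 or 3 or periosteum P2 replicate 2 (1.38 to 3.40) and without periosteum P2 replicate 2 or periosteum P3 replicate 1 or 2 (-3.56 to -1.58). Lama5 was at 1445, 6672 and 1168 in P3 of muscle, its highest group mean, and at 120.2, 2414 and 405 in P1. Muscle against periosteum was 5.34 (SE 1.05, adjusted p = 0.000731), while muscle against bone marrow was 2.55 (SE 1.05, adjusted p = 0.0761) and missed the threshold. In periosteum P3 had 1174, 1.19 and 657, with 1 library near 1, and P2 1.59, 0 and 0, and P2 against P3 was -6.44 (SE 1.83, adjusted p = 0.0176), lost without periosteum P3 replicate 1 or 3 (-5.21 to -4.79). Endothelial markers were highest in P3 of muscle, the group with the highest mean of both chains, and their part was not tested.

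Per kb, the α chain with the highest mean was Lama4 in P1 and P3 of muscle (220.4 and 328), in P1 and P3 of periosteum (112 and 133) and in all of bone marrow (31.4, 35.4 and 32.7 in P1, P2 and P3). In P2 of muscle it was Lama2 (259.6), carried by 1 library, and in P2 of periosteum Lama2 and Lama4 were level (28.8 and 28.2).

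Lama3 and Lama1 were the remaining α chains. Lama3, an α chain of epithelia, was at 664, 445 and 221 in P3 and 0, 3.04 and 40.1 in P2 of muscle, where P2 against P3 was -6.20 (SE 1.68, adjusted p = 0.0151), lost without muscle P2 replicate 1 or 2 or muscle P3 replicate 1 or 2 (-6.13 to -4.97). Over the averaged subpopulations muscle against bone marrow was 2.76 (SE 0.97, adjusted p = 0.0358), lost without any 1 of 10 libraries (2.27 to 2.80). Lama1, the chain of early embryos, never exceeded 142 and was lower in muscle than in bone marrow at -2.99 (SE 1.003, adjusted p = 0.0282), a call lost without any 1 of 6 libraries (-2.89 to -2.69).

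**Figure D4:**
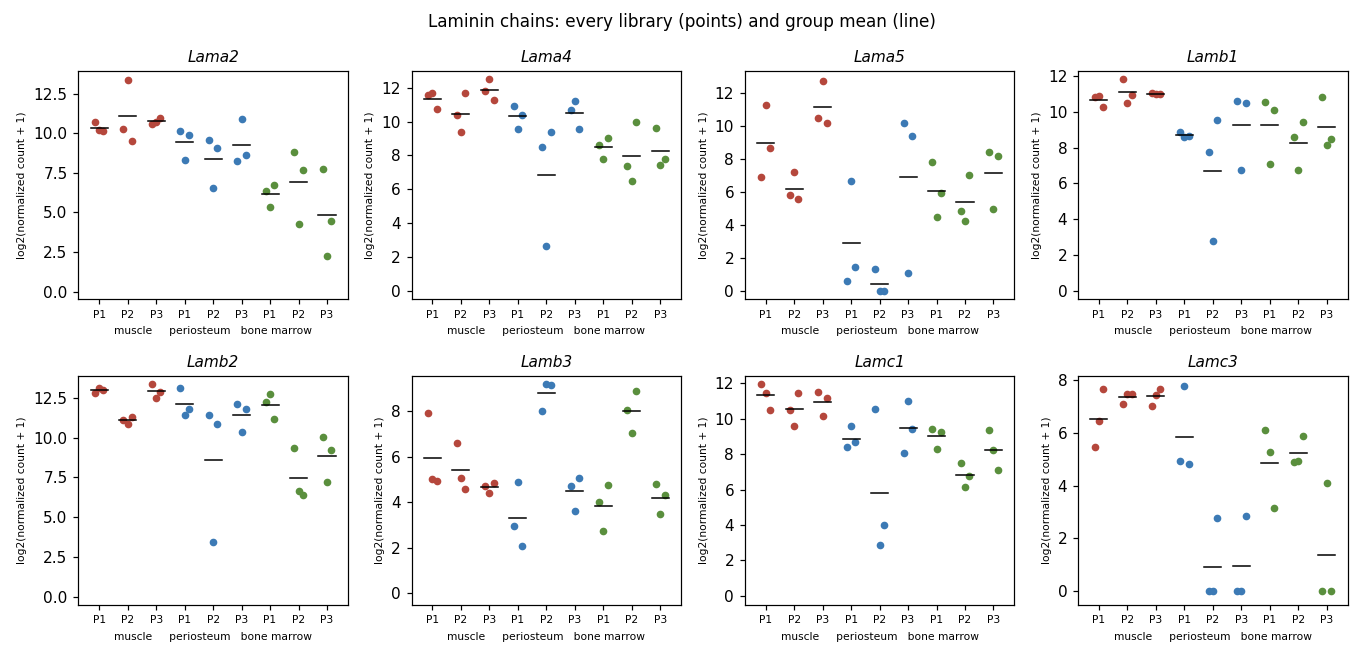
Log2(normalized count + 1) of 8 laminin chains in every library (points, colored by tissue) with the group mean (line), P1, P2 and P3 of muscle, periosteum and bone marrow from left to right. Lama2 and Lamc1 lie higher in muscle than in bone marrow in every library, and Lamb3 is high in P2 of periosteum and bone marrow.

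Among the β chains, Lamb2, found at the neuromuscular junction and in vessel walls, had the highest level. It was at 7175, 9019.9 and 8133 in P1 of muscle, 4829, 6781 and 2273 in P1 of bone marrow and 8961, 2712 and 3579.7 in P1 of periosteum. P2 of bone marrow had 663, 97.0 and 81.4, and P1 over P2 was 4.59 (SE 1.26, adjusted p = 0.00712). P2 of periosteum was split, at 2716, 9.66 and 1859.6, with P1 over P2 at 3.55 (SE 1.26, adjusted p = 0.0488), a call lost without any 1 of 22 libraries (0.98 to 3.91). Lamb2 in muscle against bone marrow was 2.89 (SE 0.73, adjusted p = 0.00396). Lamb1, the β chain of most early laminins, was between 1255 and 3727 in all 9 muscle libraries and between 5.74 and 1588 in periosteum, a change of 2.70 (SE 0.72, adjusted p = 0.00796).

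Lamb3, a β chain of epithelia, was higher in P2 than in P1 of bone marrow and periosteum. P2 of periosteum had 253, 585 and 571 and P2 of bone marrow 263, 131 and 475, against 6.81, 28.3 and 3.25 and 15.3, 5.74 and 26.3 in P1, without overlap. P1 against P2 was -5.47 (SE 0.98, adjusted p = 0.000332) in periosteum and -4.14 (SE 0.98, adjusted p = 0.0024) in bone marrow. In muscle it was 0.55, and the differences from periosteum and bone marrow were 6.02 (SE 1.39, adjusted p = 0.00594) and 4.69 (SE 1.39, adjusted p = 0.0181).

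Lamc1, the γ chain shared by most laminins, was at 3994, 2862 and 1469 in P1 of muscle and 2902, 1141 and 2286 in P3, against 698, 316 and 615 and 653, 298 and 139 in bone marrow. No muscle library overlapped bone marrow, with 2.92 (SE 0.70, adjusted p = 0.00256), and muscle against periosteum was 2.86 (SE 0.70, adjusted p = 0.00439). In P2 of periosteum the level ran from 6.30 to 1515. Lamc3, a chain of nerve and vessel laminins, was low but called in 5 comparisons. Muscle had 136, 174 and 173 in P2 and 128, 171 and 201 in P3, periosteum 0, 0 and 5.77 in P2 and 0, 0 and 6.16 in P3, and muscle against periosteum was 4.50 (SE 0.70, adjusted p = 5.42e-05). P1 of periosteum had 29.2, 214 and 27.1, which exceeded P2 by 4.91 (SE 1.21, adjusted p = 0.00612) and P3 by 4.88 (SE 1.21, adjusted p = 0.0189), the latter lost without periosteum P1 replicate 2 or periosteum P3 replicate 1 or 2 (3.92 to 4.41).

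Within each tissue most calls lay in the comparisons with P2, the CD105- CD200- cells. The counts are given as higher, then lower. In muscle P1 over P2 gave 5 higher and 0 lower (all genes 3.59% and 4.62%), and P2 against P3 0 higher and 5 lower (5.55% and 5.61%). For P1 against P3 of muscle limma called 0 of the 36 members, with 1 at an unadjusted p below 0.05, where 0.141% and 0.325% of all genes were called. In periosteum P1 over P2 gave 7 higher and 9 lower (10.1% and 8.96%), P2 against P3 7 and 7 (7.79% and 9.33%), and P1 against P3 1 and 0 (1.39% and 2.79%). In bone marrow P1 over P2 gave 6 and 5 (10.4% and 23.7%), so that the members were called about as often as genes at large, P2 against P3 4 and 3 (14.6% and 5.38%), and P1 against P3 2 and 1 (3.46% and 3.14%).

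**Figure D5:**
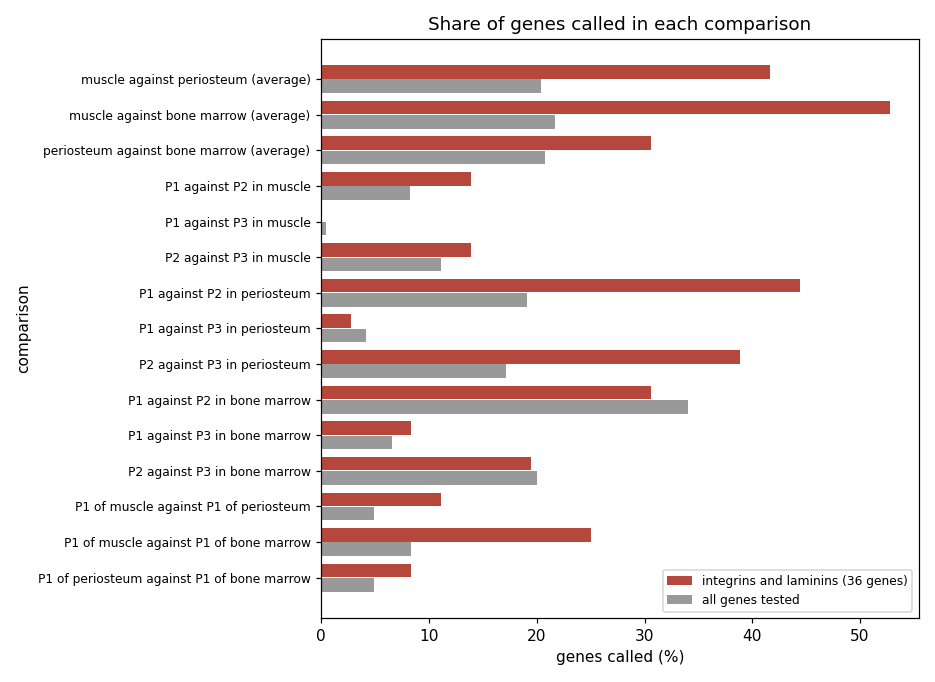
Percent of genes called in either direction in each of the 15 comparisons, for the 36 integrins and laminins (red bars) and for all genes tested (grey bars), from 0. The members exceed all genes most in muscle against bone marrow, where 52.8% of them were called, and do not exceed them in P1 against P2 of bone marrow, at 30.6%, in P2 against P3 of bone marrow, at 19.4%, or in P1 against P3 of muscle and periosteum.

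All periosteum calls between subpopulations were lost without the other groups in the fit, since a fit of only the compared groups called 0 members in each of the 3 comparisons. Over all genes that fit called 104 in P1 against P2 of periosteum, where the main fit called 3521. P1 against P3 went from 771 to 0 and P2 against P3 from 3157 to 2. With library totals made equal the split became 1 higher and 4 lower for P2 against P3 of bone marrow, 7 higher and 4 lower for P1 against P2 of periosteum, 5 higher and 10 lower for P2 against P3 of periosteum and 1 higher and 1 lower for P1 against P3 of periosteum. Under quantile normalization it was 2 higher and 3 lower for P2 against P3 of bone marrow and 1 higher and 7 lower for P2 against P3 of muscle.

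The change from P1 to P2 differed between tissues for some members. Between muscle and bone marrow 7 of 36 differed (22.2% of all genes), between muscle and periosteum 5 (11.9%) and between periosteum and bone marrow 2 (7.24%). The split between muscle and periosteum was 4 higher and 1 lower, and 4 and 0 with library totals made equal. That between periosteum and bone marrow was 1 and 1, which became 1 and 0 with equal totals and 0 and 1 under quantile normalization. For P1 against P3 1 differed between muscle and bone marrow, Itga4 (1.99%). With limma 0 differed between periosteum and bone marrow, where 5 had an unadjusted p below 0.05 (0.537%), and 0 between muscle and periosteum, where 3 had one (0.249%).

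P1 cells alone were compared between tissues. Muscle over periosteum gave 4 higher and 0 lower members (all genes 4.34% and 0.559%), namely Itga7, Itga3, Itgb4 and Itgb7. Muscle over bone marrow gave 6 and 3 (5.4% and 2.94%), with Itga7 at 9.06 on one side and Itgb2, Itgam and Itga10 on the other. Periosteum over bone marrow gave 0 and 3 (1.91% and 2.96%). With library totals made equal the split was 7 higher and 1 lower in muscle over bone marrow, and under quantile normalization it was 1 higher and 3 lower in periosteum over bone marrow. These counts moved with single libraries. Without replicate 2 or 3 of muscle P1 the count against bone marrow went from 9 to 2, and without muscle P1 replicate 3 or periosteum P1 replicate 1 that against periosteum went from 4 to 1, with Itgb7 still called.

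The partners of integrins and laminins were read from 4 lists. Basement membrane proteins had the direction of most laminins in muscle against bone marrow, with 14 of 22 genes higher and 0 lower (10.9% and 10.8% of all genes). The largest were 8.38 (SE 0.43, adjusted p = 6.84e-13) for Fbln2, 7.31 (SE 0.80, adjusted p = 1.57e-07) for Smoc2 and 6.14 (SE 1.0, adjusted p = 4.4e-05) for Col4a5, a chain of collagen IV. Against periosteum there were 8 of 22 genes higher and 1 lower (17.2% and 3.19% of all genes), with Col4a5, Col4a4 and Col4a3 at 5.82, 4.94 and 4.91 and with Sparc lower at -1.69. The median of the list was 2.75 against bone marrow and 1.46 against periosteum, beside -0.10 and 0.56 over all genes.

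Other laminin receptors, the dystroglycan complex and syndecans among them, had 6 of 11 genes higher and 1 lower in muscle against bone marrow (10.9% and 10.8% of all genes), led by Bcam, the Lutheran laminin receptor, at 4.62, Sgca, a sarcoglycan, at 3.36 and Sdc2 at 3.22, with Sdc3 lower at -1.89. In P1 against P2 of bone marrow they had 7 of 11 genes higher and 0 lower (10.4% and 23.7% of all genes), with a median of 4.43 beside -0.61 over all genes. Ligands other than laminin had 11 of 26 genes higher and 5 lower in muscle against bone marrow (10.9% and 10.8% of all genes), with a median of 0.17 beside -0.10. Vtn, the gene of vitronectin, Col3a1 and Thbs2 were higher at 6.73, 6.16 and 5.002, and Tgfb1, Ibsp and Spp1 lower at -5.67, -4.23 and -3.26. In P1 against P2 of bone marrow the same list had 16 of 26 genes higher and 5 lower (10.4% and 23.7% of all genes) and a median of 3.62. Among the higher were Col1a2 and Col1a1, the fibrillar collagen that α11 binds, at 10.55 and 10.44.

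Adaptors inside the cell had 8 of 29 genes higher and 2 lower in muscle against bone marrow (10.9% and 10.8% of all genes), with a median of 0.66. Lims2, Kank2 and Itgb1bp2, the last a β1-binding protein of striated muscle, were higher at 9.14, 2.98 and 2.97. Itgb1bp2 had a mean of 1988 in P2 of muscle but 49.1 in P1 and 6.65 in P3, beside 23.9 in P3 of bone marrow. Kank2 had a mean of 532 over muscle, and of 620, 12.1 and 111 in P1, P2 and P3 of bone marrow. Fermt3 and Parvg, adaptors of blood cells, were lower at -7.40 and -5.56, the direction of Itgb2 and Itgal. In P1 against P2 of bone marrow the list had 6 of 29 genes higher and 5 lower, where 10.4% and 23.7% of all genes were called, and its median was 0.19.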

How the data were processed

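RNA of sorted cells from 27 samples (9 groups of 3) had been amplified with SMART-Seq v4 and made into libraries with Nextera XT, which do not mark strand. The authors trimmed reads with Trim Galore, aligned them with STAR and normalized counts with DESeq2, and deposited a gene table of normalized counts, a signal that is not whole counts. Genome build, annotation and counting tool are not given in the sources used here. Raw counts were not used here, so precision was read from the spread between libraries. The labels assigned every column to a sample. A row naming no gene (0.0047% to 0.213% of the values) was left out.

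Values were tested as log2(normalized count + 1) with limma 3.58.1 in R 4.3.3 (9 group means, moderated variances with a trend), over 18442 genes with at least 10 in at least 3 libraries. Benjamini-Hochberg adjustment ran over all of these. The 37 alternatives are other pseudocounts (0.1 and 5), filters, scalings, a replicate block, a fit without trend, a fit of only the compared groups, a fold threshold of 1 and each library left out. On data simulated for P1 against P2 in muscle (18442 genes), the fit recovered 7 of 100 genes changed by 2 on the log2 scale and 21 of 100 changed by 3, all in the right direction, with 4 others called. The simulation gave all groups the same mean for each gene and changed only 200 genes. In the data 1514 genes were called in that comparison, so these rates need not hold there. Deviations of libraries with the same replicate number had correlations between -0.0592 and 0.0502 over 36 pairs of groups. These correlations cannot tell whether such libraries came from the same animal, so pairing stays unknown. Levels per kb used the exon length of GENCODE M21 on GRCm38. Of the members, 12 share exon bases with another gene and 24 share none. Of 37 genes matching the symbols, 1 is not reported here. The members and the gene lists were chosen with earlier results of these data known. Values were given in full for the members called most often in each role, up to 3, and for the largest changes without overlap, and other members were added after their values were seen.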

Additional observations from a re-analysis of the deposited data

Results flagged for a closer look

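For 15 changes of a member between subpopulations, limma found that the change in log2(normalized count + 1) differed between tissues. In P1 against P2 it differed for 7 of 36 members in muscle minus bone marrow, where 22.2% of all genes tested did. For muscle minus periosteum this was 5 members and 11.9%, and for periosteum minus bone marrow 2 and 7.24%. P1 against P3 in muscle minus bone marrow had 1 member and 1.99%. The members thus differed about as often as genes at large. In P1 against P2, muscle minus bone marrow, the difference was for Itga4 6.09 (adjusted p = 0.000104), Lama3 8.31 (adjusted p = 0.0149), Itgb7 7.50 (adjusted p = 0.029), Itgae 6.40 (adjusted p = 0.0304), Itga3 6.39 (adjusted p = 0.0231), Lamb3 4.69 (adjusted p = 0.0181) and for Itga11 -4.25 (adjusted p = 0.000777). The first 6 had a higher change in muscle and Itga11 a lower one, and Itgae was listed at 0 in P1 of bone marrow. The call was lost for Itgae without any 1 of 8 libraries, all 3 of bone marrow P1, bone marrow P2 replicate 1 or 3, muscle P1 replicate 1 or 3 and muscle P2 replicate 3 (4.71 to 6.45). That of Itgb7 was lost without bone marrow P1 or P2 replicate 2, muscle P1 replicate 3 or muscle P2 replicate 1 (5.53 to 7.08), that of Itga3 without bone marrow P2 replicate 3, muscle P1 replicate 1 or muscle P2 replicate 1 (5.503 to 6.109) and that of Lamb3 without bone marrow P1 replicate 2, bone marrow P2 replicate 3 or muscle P1 replicate 1 (3.72 to 4.24). In P1 against P2, muscle minus periosteum, it was for Lamb3 6.02 (adjusted p = 0.00594), Itga6 5.60 (adjusted p = 0.0332), Itgal 4.73 (adjusted p = 0.0377), Itga4 4.21 (adjusted p = 0.00559) and for Lamc3 -5.73 (adjusted p = 0.0301). Here the call of Itgal was lost without any 1 of 7 libraries, muscle P1 replicate 1 or 3, muscle P2 replicate 1, periosteum P1 replicate 1 or 2 and periosteum P2 replicate 2 or 3 (3.51 to 4.66). That of Lamc3 was lost without any 1 of 6, muscle P1 replicate 1 or 2, muscle P2 replicate 2 or 3, periosteum P1 replicate 2 and periosteum P2 replicate 2 (-5.69 to -4.77), and that of Itga6 without any 1 of 5, muscle P1 replicate 2 or 3, muscle P2 replicate 3, periosteum P1 replicate 1 and periosteum P2 replicate 3 (3.60 to 5.13). In P1 against P2, periosteum minus bone marrow, it was for Itga8 7.72 (adjusted p = 0.0187) and Itga11 -3.32 (adjusted p = 0.0139), the first lost without bone marrow P2 replicate 3 (6.35). In P1 against P3 it was for Itga4 4.61 (adjusted p = 0.01), muscle minus bone marrow.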

How the results depend on the processing

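None of the 138 called member changes and differences turned its direction in any of 37 alternatives. The calls lost numbered 22 at a pseudocount of 0.1, 3 at 5, 25 without a filter, 0 of 121 with a mean of at least 50, 5 without a trend, 15 with equal library totals, 16 under quantile normalization, 52 with only the compared groups in the fit, and 7 to 23 without 1 library. With the replicate block 137 calls were kept and 1 was lost, that of Itga8 in P1 of muscle against P1 of bone marrow, and no count of calls moved by over 1.5 times. The cause of these changes was not tested.

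The counts of called members that moved by over 1.5 times were as follows. P1 of muscle against P1 of periosteum had 2 at a pseudocount of 0.1. Without a filter P1 against P2 of periosteum had 10 and P1 of muscle against P1 of bone marrow 4. P1 against P3 of periosteum had 2 at a pseudocount of 5, with a mean of at least 50 and with equal totals. With equal totals P1 against P2 of muscle had 8 and P2 against P3 of muscle 9, and quantile normalization gave the latter 8. Both scalings gave 1 difference for P1 against P2 and 1 for P1 against P3 in periosteum minus bone marrow. With only the compared groups in the fit, P1 against P3 of muscle had 2, P2 against P3 of muscle 10, all 3 comparisons within periosteum 0, P1 against P3 of bone marrow 5 and P1 of periosteum against P1 of bone marrow 0. The differences then numbered 1 for P1 against P2 in muscle minus periosteum, 11 and 4 for P1 against P2 and P1 against P3 in muscle minus bone marrow, and 1 for P1 against P2 in periosteum minus bone marrow.

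Leaving out 1 library gave 11 to 15 calls in muscle against periosteum, 16 to 20 in muscle against bone marrow and 10 to 14 in periosteum against bone marrow. In muscle P1 against P2 ranged from 2 (without P1 replicate 3 or P2 replicate 1) to 6, with 3 without P1 replicate 1 or 2. P1 against P3 of muscle stayed at 0. P2 against P3 of muscle ranged from 2 (without P2 replicate 1 or P3 replicate 1) to 6, with 3 without P3 replicate 2 or 3. In periosteum P1 against P2 ranged from 10 (without P1 replicate 1) to 18, P2 against P3 from 8 (without P3 replicate 3) to 15, with 9 without P2 replicate 2, and P1 against P3 from 0 (without P3 replicate 1) to 3 (without P1 replicate 3 or P2 replicate 1), with 2 without P3 replicate 3. In bone marrow P1 against P2 ranged from 10 to 13, P1 against P3 from 3 to 4, and P2 against P3 from 3 (without P3 replicate 1) to 8, with 4 without P2 replicate 1 or 3. In P1, muscle against periosteum ranged from 1 (without muscle replicate 3 or periosteum replicate 1) to 7 (without periosteum replicate 3), with 2 without muscle replicate 1 or 2. Muscle against bone marrow ranged from 2 (without muscle replicate 2 or 3) to 11, with 3 without muscle replicate 1 or bone marrow replicate 1 or 2 and 5 without bone marrow replicate 3. Periosteum against bone marrow ranged from 1 (without bone marrow replicate 2 or 3) to 4.

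The differences of P1 against P2 ranged from 3 to 7 in muscle minus periosteum (3 without muscle P1 replicate 1 or 3, muscle P2 replicate 3, or periosteum P1 replicate 1 or 2), from 4 to 8 in muscle minus bone marrow (4 without bone marrow P1 replicate 2, bone marrow P2 replicate 3 or muscle P1 replicate 1) and from 1 (without bone marrow P2 replicate 3) to 4 (without periosteum P1 replicate 1 or 3 or P2 replicate 3) in periosteum minus bone marrow. Those of P1 against P3 were 0 throughout, 1 throughout and 0 to 1 (1 without periosteum P1 replicate 1 or P3 replicate 3) in the same order. The spread between libraries of a group, estimated over all groups together and not from counts of reads, sets what could be called.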
